A study of Mus musculus with 6 samples.

Results

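The 10 genes described here are Egr1, Egr2, Egr3 and Egr4, Nr4a1, Nr4a2 and Nr4a3, and Arc, Npas4 and Ier2, which are grouped as activity-induced genes. They were chosen by name, and each was read from the array's probe set that carries its symbol and no other, 1 probe set per gene, out of 19937 genes measured in this way. RNA was measured in 6 samples of primary neurospheres, called big neurospheres in every sample title, free-floating balls of cells that precursors of the brain grow into in a dish. How their size was set is not given in the labels. The cells came from the hippocampus of male C57BL/6J mice 8 to 12 weeks old and were grown in medium with EGF and bFGF. To this, 10 µM norepinephrine was added for 3 samples and 15 mM KCl for the other 3, and all were collected on day 14. The study asked which genes are higher or lower between the treatments. No untreated spheres were analysed here, so a difference, given throughout as norepinephrine minus KCl, does not say which agent moved a gene. The labels call the samples biological replicates without naming animals or cultures, so each p-value reflects only how far these samples spread, which may be technical.

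Immediate early genes are transcribed within minutes of a stimulus from factors that are already in the cell, and most of their RNAs are short-lived. In neurons, depolarisation lets in calcium, which activates kinases that phosphorylate CREB, a factor that binds cyclic AMP response elements, and the ternary complex factors that act with SRF at CArG boxes. Norepinephrine acts through G protein-coupled adrenergic receptors, of which the beta class raises cyclic AMP and the alpha-1 class raises calcium. The Egr proteins are zinc finger factors that bind GC-rich sites, the Nr4a proteins are orphan nuclear receptors, Npas4 is a neuronal bHLH-PAS factor, Arc is a synaptic protein that drives AMPA receptor endocytosis, and Ier2 is a small nuclear protein of early growth responses. RNA was collected on day 14 of the culture alone, so the readings cannot show the course of a first response to the agent. Whether they are a standing level or a response close to collection was not tested.

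The upstream sequences of these genes are shown because elements through which calcium and cyclic AMP act on such genes often lie there, and no measurement of binding was made. Windows of 250 bases ending just before a RefSeq start site (GRCm38.p6) were searched for 6 of the 10 genes, 10 windows in all. The remaining genes were not searched, so nothing is said about their upstream sequences. Capitals mark TGACG, the core of the cyclic AMP response element, on either strand (CGTCA when read on the other), and the CArG box.
Npas4 (chr19:4989972-4990221, minus strand): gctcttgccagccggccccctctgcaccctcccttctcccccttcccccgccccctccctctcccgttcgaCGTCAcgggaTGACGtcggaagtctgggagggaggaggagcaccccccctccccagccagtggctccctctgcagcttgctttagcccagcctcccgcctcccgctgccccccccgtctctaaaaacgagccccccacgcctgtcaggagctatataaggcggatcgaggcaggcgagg
Egr4 (chr6:85513590-85513839, minus strand): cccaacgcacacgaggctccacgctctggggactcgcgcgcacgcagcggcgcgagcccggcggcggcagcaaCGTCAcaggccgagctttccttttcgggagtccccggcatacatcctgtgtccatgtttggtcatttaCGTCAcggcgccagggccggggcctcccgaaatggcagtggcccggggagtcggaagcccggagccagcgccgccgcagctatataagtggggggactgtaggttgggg
Nr4a1 (chr15:101266596-101266845, plus strand): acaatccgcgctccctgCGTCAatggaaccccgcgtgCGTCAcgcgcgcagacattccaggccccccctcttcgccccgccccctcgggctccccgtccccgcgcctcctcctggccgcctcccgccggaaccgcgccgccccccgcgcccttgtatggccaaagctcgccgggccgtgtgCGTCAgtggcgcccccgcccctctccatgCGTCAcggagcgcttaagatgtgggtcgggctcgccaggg
Nr4a2 (chr2:57124004-57124253, minus strand): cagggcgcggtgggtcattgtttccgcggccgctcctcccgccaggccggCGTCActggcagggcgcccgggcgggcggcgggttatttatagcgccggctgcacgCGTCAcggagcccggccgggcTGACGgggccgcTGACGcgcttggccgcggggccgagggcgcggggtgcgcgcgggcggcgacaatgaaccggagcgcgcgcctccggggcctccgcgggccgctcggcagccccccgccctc
For Nr4a3 and Egr2, whose windows run past another RefSeq start or the gene's first base, a short stretch is given. The RefSeq models of Npas4 and Nr4a1 also extend upstream of the windows above.
Nr4a3 (chr4:48045090-48045106, plus strand): gtCGTCAcatTGACGtc
Egr2 (chr10:67537795-67537820, plus strand): gtCCATATATGGgcagcgaCGTCAcg
All 6 genes searched had TGACG in at least 1 of their windows. Of the 32851 single windows in the RefSeq table, 17.8% had it. These shares differ in unit, since a gene counted if any of its windows matched and Egr2 had 5, not all with TGACG. Each of the 3 Nr4a genes had TGACG 4 times, while 0.688% of all windows had it 3 times or more. Npas4 and Egr4 had it 2 times, and 3 overlapping windows of the 5 of Egr2 held it 2 times together with a CArG box, which 1.47% of all windows hold. The full element TGACGTCA, which contains TGACG on both strands, was in none of the 10 windows and in 1.55% of all windows. The Egr site GCGNGGGCG was found once each in Nr4a1 and Nr4a2, against 4.70% of all windows. A match describes letters and does not show that a factor binds there.

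The arrays give log2 expression values, on which a difference of 1 is a 2-fold change, and precision is limited by having 6 arrays. KCl replicate 1 stood apart. Its values over the 21640 probe sets with 1 symbol were compressed, with an SD of 1.38 log2 units where the other 5 arrays had 1.62 to 1.78. Results are therefore also given without that array. Over all named probe sets, the median difference was -0.075, and 0.0083 without KCl replicate 1, while 38% of probe sets were higher and 62% lower with norepinephrine (47.8% lower without KCl replicate 1). No detection calls were given with the values, so whether a low reading is above background is not known, and readings of different genes are not compared with each other.

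No difference between the treatments was established for any of the 10 genes in the fit over all probe sets. By limma with Benjamini-Hochberg adjustment, the threshold of an adjusted p under 0.05 was met by 0 of 10 genes and 0 of 21640 probe sets (0%). The adjusted p of the 10 genes ran from 0.939 to 0.984. At an unadjusted p under 0.05 there were 0 of the 10 genes and 743 probe sets (3.43%). Of the 10 genes, 4 had values above 0 and 6 below 0, with a median difference of -0.066, close to that of all probe sets. Without KCl replicate 1, 7 were above 0 and 3 below, with a median of 0.049. Without norepinephrine replicate 2, 6 were above 0, with a median of 0.047, so the balance turned with either array. Over all probe sets, 40.5% were above 0 without norepinephrine replicate 2, with a median of -0.049. The same values were 52.2% and 0.0083 without KCl replicate 1, and 38% and -0.075 on 6 arrays. Without KCl replicate 1, 0 of the 10 genes and 4 probe sets (0.0185%) passed.

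**Figure D1:**
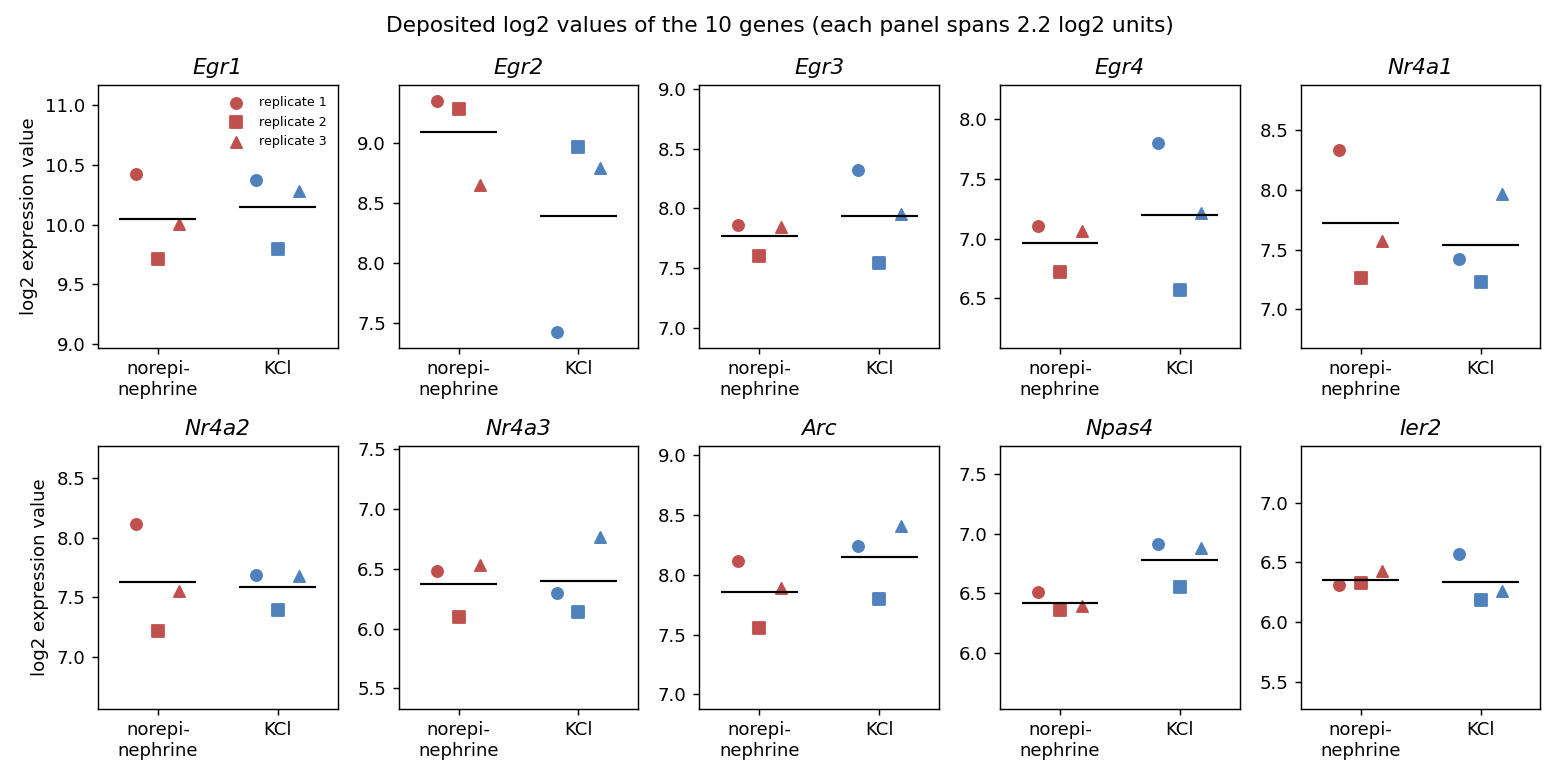
Deposited log2 values of the 10 genes on each array, norepinephrine left and KCl right in each panel; symbols mark replicates, black bars the group means, and each panel spans the same number of log2 units. The groups overlap in every panel but that of Npas4, and the squares of replicate 2 lie at the bottom of both groups in 8 of the 10 panels.

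Among the Egr genes, Egr1, the best-known member and a factor tied to growth and memory, read 10.42, 9.72 and 10.01 on the norepinephrine arrays, against 10.38, 9.79 and 10.28 on the KCl arrays. Both groups spanned nearly the same range. The difference was -0.10 ± 0.25 (log2 units ± SE, n = 3 per group), with a 95% interval from -0.67 to 0.47, which covers 0.627-fold to 1.38-fold. It was 0.010 without KCl replicate 1 and 0.063 without norepinephrine replicate 2.

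Egr2, which in Schwann cells directs myelination and in the hindbrain patterns rhombomeres, stood apart from its family. It read 9.36, 9.28 and 8.65 with norepinephrine, against 7.42, 8.97 and 8.79 with KCl. The low value of KCl replicate 1 set most of the gap, and the lowest norepinephrine array lay below both other KCl arrays. The difference of 0.70 ± 0.40 (adjusted p = 0.939 by limma) was the largest in size of the 10, and it was 0.22 ± 0.23 without KCl replicate 1. Egr2 was the 1 gene of the family whose value on that array was the lowest of its group, and what made it low was not tested.

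Egr3, which acts in muscle spindle and T cell development, read 7.86, 7.61 and 7.84 with norepinephrine, against 8.32, 7.54 and 7.95 with KCl. The norepinephrine arrays lay close together and inside the KCl range. Egr4, a less studied relative, read 7.11, 6.72 and 7.07 with norepinephrine, against 7.80, 6.57 and 7.21 with KCl. Here too the KCl arrays enclosed the norepinephrine arrays, with KCl replicate 1 at the top and KCl replicate 2 at the bottom. The differences were -0.17 ± 0.24 for Egr3 and -0.23 ± 0.31 for Egr4, and 0.024 and 0.074 without KCl replicate 1. All 4 Egr genes thus had values above 0 without that array, and 1 of 4 with it.

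The Nr4a receptors are induced by cyclic AMP and calcium in many cell types, and Nr4a2 is also required for midbrain dopamine neurons. Nr4a1 read 8.33, 7.26 and 7.57 with norepinephrine, against 7.42, 7.22 and 7.96 with KCl. Norepinephrine replicate 1 was the highest of the 6 arrays and KCl replicate 2 the lowest. The difference was 0.19 ± 0.31 (95% interval from -0.52 to 0.90), and it was -0.12 without norepinephrine replicate 1.

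Nr4a2 read 8.12, 7.22 and 7.55 with norepinephrine, against 7.69, 7.39 and 7.68 with KCl. Its norepinephrine arrays enclosed all KCl arrays. Nr4a3 read 6.49, 6.10 and 6.53 with norepinephrine, against 6.30, 6.14 and 6.76 with KCl, and these groups overlapped too. The differences were 0.044 ± 0.25 for Nr4a2 and -0.030 ± 0.23 for Nr4a3. Nr4a2 stood at -0.20 without norepinephrine replicate 1 and at -0.052 without KCl replicate 2. Nr4a3 stood at 0.11 without norepinephrine replicate 2 and at 0.15 without KCl replicate 3. The sign of each of the 3 Nr4a genes therefore changed with the array left out.

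Npas4, which neurons induce on calcium entry and which controls inhibitory synapses, was the 1 gene of the 10 whose groups did not overlap. It read 6.51, 6.36 and 6.39 with norepinephrine, against 6.91, 6.56 and 6.88 with KCl. The highest norepinephrine array lay 0.047 log2 units below the lowest KCl array. The difference was -0.36 ± 0.19 (1.28-fold higher with KCl, 95% interval from -0.79 to 0.069, adjusted p = 0.939 by limma), and -0.29 without KCl replicate 1. Groups did not overlap in 9.13% of all named probe sets, and in 4.77% with norepinephrine below KCl, so 1 gene in 10 is near the background share. With arrays weighted gene by gene in limma, an alternative chosen after seeing the data, Npas4 stood at -0.43 ± 0.10 (adjusted p = 0.031), where 6.72% of all probe sets were called. In that fit KCl replicate 3 had a weight of 6.76 against 0.158 and 0.288 for the other KCl arrays, so a single array stood for the KCl group. Over the 14 alternatives the adjusted p of Npas4 ran from 0.00214 to 1.00, and 2 of them, both with array weights, were under the threshold.

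Arc, whose RNA travels to active synapses, read 8.11, 7.55 and 7.89 with norepinephrine, against 8.24, 7.80 and 8.41 with KCl. The groups overlapped, with the highest norepinephrine array above the lowest KCl array. The difference was -0.29 ± 0.24 (95% interval from -0.83 to 0.25) and -0.25 without KCl replicate 1. Ier2 read 6.31, 6.33 and 6.42 with norepinephrine, against 6.57, 6.19 and 6.26 with KCl. Its norepinephrine arrays lay between the KCl arrays, and the difference was 0.018 ± 0.19. It was -0.016, -0.058 and -0.021 without norepinephrine replicate 3, KCl replicate 2 and KCl replicate 3 in turn. Of the 10 genes, Egr2, Arc and Npas4 kept their sign with each array left out in turn, 3 of 10, against 48.8% of all named probe sets.

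**Figure D2:**
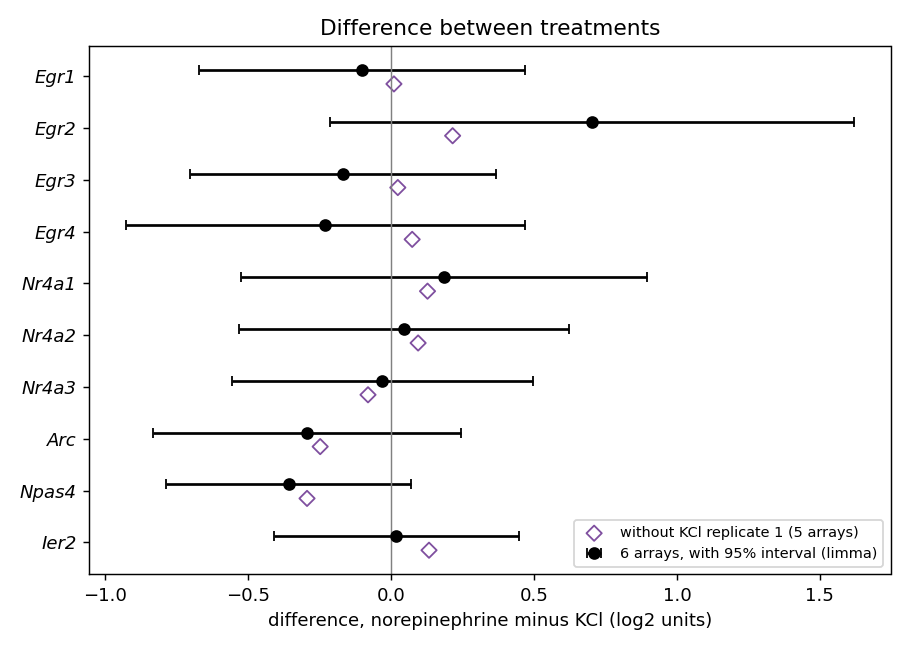
Difference between treatments for each gene in log2 units; filled points are the fit on 6 arrays with its 95% interval and open diamonds the value without KCl replicate 1. Every interval includes 0, and the values of Egr1, Egr3 and Egr4 move from below 0 to above 0 when that array is left out.

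The within-group standard deviation of 7 of the 10 genes lay above the median of all probe sets, where 50% lie by definition. Nr4a1 differed 2.10-fold between norepinephrine replicates 1 and 2, Nr4a2 1.86-fold and Egr1 1.63-fold. Between KCl replicates 3 and 2, Nr4a1 differed 1.67-fold, Egr4 1.56-fold, Nr4a3 1.54-fold and Arc 1.53-fold.

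This spread had a common order. Replicate 2 read lowest in both groups for 8 of the 10 genes, all but Egr2 and Ier2, against 38.7% of all named probe sets. The labels do not say whether replicate numbers mark a shared animal or culture. Norepinephrine replicate 1 exceeded replicate 2 in 9 of the 10 genes, with a median of 0.39 against 0.092 over all probe sets. KCl replicate 3 exceeded replicate 2 in 9 of the 10 genes, with a median of 0.45 against 0.12 over all probe sets. KCl replicate 1 also exceeded replicate 2 in 9 of the 10, with a median of 0.37 that is near the 0.32 of all probe sets. Both replicate 2 arrays also had the widest spread of values, at 1.76 and 1.78, and the lowest medians over all probe sets, at 7.07 and 7.03. After a further quantile normalization, which makes the distributions alike, replicate 2 was lowest in both groups for 6 of the 10 genes, against 25.7% of all probe sets, and after centring each array for 5, against 24.3%. This order was noticed in these data and has no test. On the deposited values it was also frequent among the microglia markers and the endothelial and mural markers described below.

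**Figure D3:**
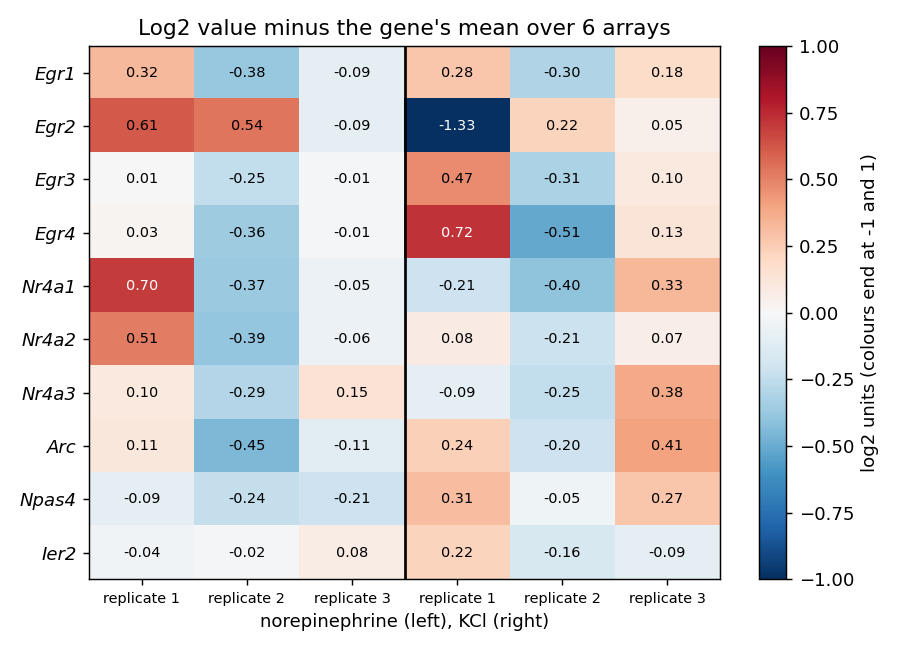
Log2 value of each gene minus its own mean over the 6 arrays, norepinephrine columns left and KCl columns right, red above and blue below the mean. The replicate 2 columns are below the mean in both groups for all genes but Egr2, whose KCl replicate 1 reading is the deepest blue.

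The same order was looked for in 50 measured genes of a list of related induced genes, among them the AP-1 factors, Dusp phosphatases and Gadd45 genes. Of these, 39 (78%) read higher on norepinephrine replicate 1 than on replicate 2, against 61.9% of all named probe sets, and 37 (74%) higher on KCl replicate 3 than on replicate 2, against 61.5%. After the further quantile normalization these shares were 80% and 76%, against 53.6% and 54.7%. Replicate 2 was lowest in both groups for 20 of the 50, or 40%, which is near the 38.7% of all probe sets. The share was 36% after the further quantile normalization, against 25.7%, and 32% after centring each array, against 24.3%.

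Between the treatments, 26 of 50 genes of this list were above 0, against 38% of all named probe sets, with a median of 0.0082 against -0.075 and 0 genes passing in either direction. Without KCl replicate 1 the median was 0.038, with 30 of 50 above 0, against a median of 0.0083 over all probe sets. Scg2, the neuropeptide precursor secretogranin II, read 7.41, 7.58 and 7.47 with norepinephrine, against 6.52, 6.85 and 6.70 with KCl, and its groups were well separated. Its difference was 0.80 ± 0.18 (1.74-fold, adjusted p = 0.939 by limma), and 0.71 without KCl replicate 1. The stress-induced factor Atf3 stood at -0.39 ± 0.18 with groups that did not overlap. Ier3, a regulator of cell survival, stood at 0.77 ± 0.35, and at 0.33 without KCl replicate 1. The stress gene Gadd45b, which promotes DNA demethylation in neurons, stood at -0.50 ± 0.23. In all, groups did not overlap in 5 of the 50, 3 higher and 2 lower with norepinephrine, a share near the 9.13% of all named probe sets.

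**Figure D4:**
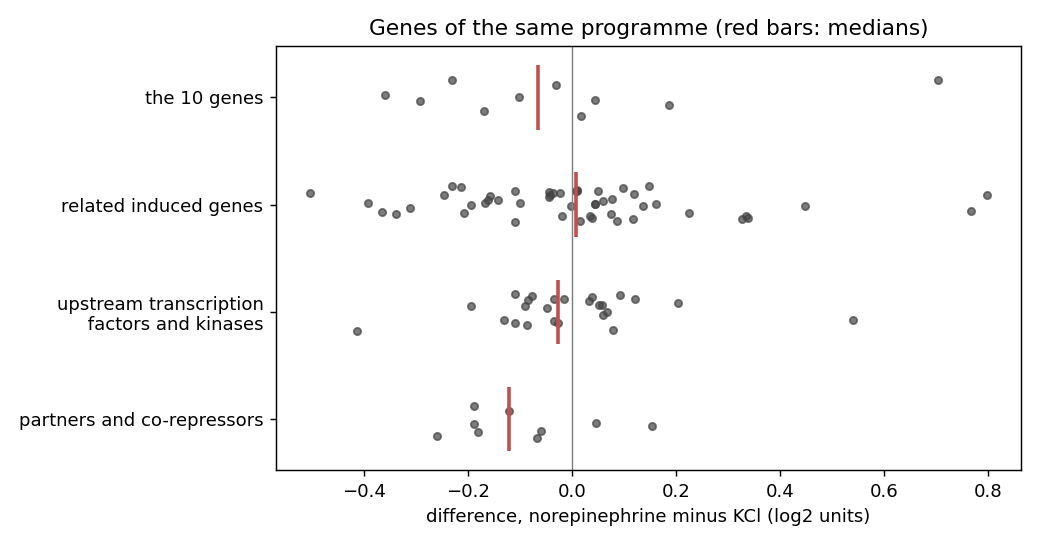
Differences between treatments in log2 units for the 10 genes and for 3 lists of the same programme, each point a gene, with vertical jitter for legibility; red bars are medians. All 4 medians lie between -0.122 and 0.0082, and points fall on both sides of 0 in each row.

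Of 25 measured transcription factors and kinases that act upstream of these genes, 11 were above 0 and 14 below, with a median of -0.027 and 0 passing. Without KCl replicate 1, 7 of the 25 were above 0 and the median was -0.17. Prkacb, a catalytic subunit of protein kinase A, read 10.64, 10.90 and 10.44 with norepinephrine, against 10.19, 10.22 and 9.95 with KCl. Its groups did not overlap, and its difference was 0.54 ± 0.20 (adjusted p = 0.939 by limma). Mef2c, a calcium-responsive neuronal factor, stood at -0.41 ± 0.28, Srf at -0.19 ± 0.19 and the CREB coactivator Crtc2 at 0.20 ± 0.21. Of 9 partners and co-repressors, 2 were above 0 and 7 below, with a median of -0.12 and 0 passing, or -0.070 without KCl replicate 1. They included Nab1, which represses Egr proteins, at -0.26 ± 0.21, the bHLH-PAS partner Arnt at -0.19 ± 0.19, and the receptors Rxra and Rxrg, with which Nr4a1 and Nr4a2 can pair, at -0.18 ± 0.19 and -0.19 ± 0.20. The other Nab gene of the list, Nab2, stood at 0.15 ± 0.17, with groups that did not overlap. Of 9 adrenergic receptors listed, 2 were measured under a single symbol, the alpha-2 receptor Adra2c at -0.24 ± 0.22 and the alpha-1 receptor Adra1b at -0.14 ± 0.25, or 0.12 without KCl replicate 1.

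As Arc and Npas4 are mainly neuronal and several of the 10 genes are also induced in other cells, marker lists were read beside them. In RNA of whole spheres, fewer cells of a type and less RNA per cell cannot be told apart. The summed level of 20 neuron markers, given as their mean, was 7.30, 7.15 and 7.25 with norepinephrine, against 7.30, 7.06 and 7.12 with KCl. Within each group replicate 2 was lowest here, as it was for the means of the microglia, oligodendrocyte and endothelial lists below. Single neuron markers had replicate 2 lowest in both groups in 45% of cases, and in 25% after the further quantile normalization, near the 25.7% of all probe sets. This share was 66.7% for microglia, 60% for endothelial and mural, 33.3% for oligodendrocyte lineage and 14.3% for neural stem and astroglia markers. After centring each array, the microglia list and the endothelial and mural list each stood at 50%, as the 10 genes did. After the further quantile normalization they stood at 16.7% and 30%, against 60% for the 10 genes. Of the neuron markers 12 were above 0, or 17 without KCl replicate 1, and 0 passed. Snap25, a protein of synaptic vesicle fusion, stood at 1.03 ± 0.27 and the tubulin Tubb3 at 0.47 ± 0.18, whereas the microtubule protein Map2 stood at -0.33 ± 0.18 and the glutamate transporter Slc17a6 at -0.30 ± 0.18. The part of neuron number in the Npas4 and Arc values was not tested.

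The labelled precursor identity was read from 14 neural stem and astroglia markers, whose mean was 9.59, 9.57 and 9.48 with norepinephrine, against 8.74, 9.23 and 9.11 with KCl. Those groups did not overlap, 10 of 14 were above 0, the median was 0.49 (0.24 without KCl replicate 1), and 0 passed on 6 arrays. Without KCl replicate 1, Gfap passed. On 6 arrays Gfap stood at 1.89 ± 0.30 in that list, Aqp4 at 1.17 ± 0.22, Id3 at 0.76 ± 0.24 and Prom1 at 0.60 ± 0.21. The 4 below 0 were Hes1 at -0.38 ± 0.19, Fabp7 at -0.15 ± 0.18, Nes at -0.096 ± 0.37 and Hes5 at -0.038 ± 0.22. Of these, Hes1 had groups that did not overlap, and Nes stood at -0.58 without KCl replicate 1. In 12 microglia markers, 10 were below 0, with list means from 6.02 to 6.20 with norepinephrine and 6.05, 6.23 and, on KCl replicate 1, 6.73. The 9 oligodendrocyte lineage markers had means from 8.06 to 8.13 with norepinephrine and from 7.90 to 8.16 with KCl, and the 10 endothelial and mural markers from 6.48 to 6.61 with norepinephrine and from 6.36 to 6.83 with KCl. Without KCl replicate 1 the medians of the microglia, oligodendrocyte and endothelial lists were 0.041, 0.13 and 0.059. How these lists bear on the 10 genes was not tested.

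The genes most like Egr1 and Nr4a1 across the 6 arrays were found by the root mean square distance between values centred on each gene's mean, among 13948 genes brighter than the 30th percentile. For Egr1 they were Mospd4 at 0.064, the homeobox gene Lbx1 at 0.070 and Trnp1 at 0.075 log2 units, where the median gene was at 0.32. For Nr4a1 they were Micalcl at 0.048, the neuronal intermediate filament Ina at 0.135 and the adaptor Dok5 at 0.135, where the median gene was at 0.45. Micalcl read 8.40, 7.27 and 7.71 with norepinephrine, against 7.47, 7.26 and 7.95 with KCl, which follows Nr4a1 array by array. Among the 10 genes, Nr4a2 at 0.126 and Arc at 0.135 lay nearest to Egr1 and Egr2 at 0.80 farthest. With so many genes and 6 arrays, near matches arise readily, and the distances are a description.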

How the data were processed

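RNA of 6 samples was measured on 6 arrays, 3 per treatment, grouped by the sample titles. The authors' deposited table holds log2 values, one for each probe set. Partek and RMA are named in the submitters' processing notes, without version or setting. Of 34760 probe sets, 21640 carried 1 gene symbol in the platform annotation, 1321 several and 11799 none; 21553 matched the RefSeq gene table (GRCm38.p6) by Entrez identifier, and 0 symbols changed. A gene was represented by its brightest probe set. Differences were fitted by lmFit and eBayes of limma 3.58.1 (R 4.3.3, two-sided, no covariate) on all 21640 probe sets. Benjamini-Hochberg adjustment was made over them, with a threshold of 0.05. The code was run on simulated data to see that it returns changes put in. Those data had independent noise and no array-wide effects, so they do not show how the fit behaves on these arrays. The 10 genes, the lists and the naming rule (all 10 genes, up to 4 genes of smallest p per list, and the 3 genes nearest to Egr1 and to Nr4a1) were chosen with earlier results of these data known. Hes1, Fabp7, Nes, Hes5 and Nab2 were named outside that rule, to show members of their lists on the other side of 0. Alternatives were a further quantile normalization, centring, a filter at the 30th percentile, trend and robust moderation, weighting of arrays, a block for replicate number, the mean over probe sets, and each array left out. Gene-by-gene array weights and the scalings of the replicate order were added after the data were seen. Promoter windows of Egr2 and Nr4a3 were not printed whole because they overlap or lie just past another RefSeq start. Upstream sequences of Egr1, Egr3, Arc and Ier2 were not searched.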

Additional observations from a re-analysis of the deposited data

How the results depend on the processing

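With limma's default array weights, 3 of the 10 genes (Arc, Nr4a3 and Npas4) and 5670 probe sets (26.2%) had an adjusted p under 0.05, but the weights did not reach their convergence tolerance, and KCl replicate 3 had a weight of 673 against 0.058 to 1.07 for the other arrays. With gene-by-gene weights 1 of the 10 genes and 1454 probe sets were called. Nr4a1 stood at -0.18 and -0.13 under these weights, and Nr4a3 at 0.094 after a further quantile normalization and 0.0080 after centring; the causes were not tested. With each array left out in turn, 0 of the 10 genes and 0 to 4 probe sets were called, 2 to 7 of the 10 genes were above 0 (7 without KCl replicate 1, and 2 without KCl replicate 2 or norepinephrine replicate 1), and their median ran from -0.22 to 0.049. The ranges that crossed 0 were -0.29 to 0.063 for Egr1, -0.37 to 0.024 for Egr3, -0.54 to 0.074 for Egr4, -0.12 to 0.42 for Nr4a1, -0.20 to 0.25 for Nr4a2, -0.16 to 0.15 for Nr4a3, -0.058 to 0.13 for Ier2 and -0.34 to 0.12 for Adra1b. Replicate 2 was lowest in both groups for 5 of the 10 genes after centring. With the replicate block 0 of the 10 genes and 0 probe sets were called, and 1436 probe sets had an unadjusted p under 0.05 against 743 without it. The numbers were not taken to pair the samples because the labels do not say that they mark a shared animal or culture. Over probe sets, deviations from the group means correlated at 0.30, 0.63 and 0.085 between same-numbered arrays. Between arrays of different number they correlated at -0.47 to 0.31, and not every array correlated best with its own number. Whether equal numbers share an origin was not tested. Trend and robust moderation, the filter on dim probe sets, which removed Nr4a3 and Ier2, and the mean over probe sets called 0 of the 10 genes and changed no sign among them.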
